A study of Gallus gallus with 3 samples.

Results

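The genes of the cytosolic ribosomal proteins, which build the ribosome of the cytoplasm, were followed through 3 RNA libraries of the chicken embryo inner ear. The members were all genes whose symbol starts with RPL or RPS and a digit, or with RPLP, without the RPS6K kinases. They numbered 71 of the 30108 genes in the files, 15097 of which carry a symbol, and no gene carried the symbol RPSA. The large subunit symbols (RPL and RPLP) numbered 44 and the small subunit symbols (RPS) 27. The rule took in 8 symbols that name a paralog copy, a relative or a binding partner of a ribosomal protein, namely RPL3L, RPL7L1, RPL22L1, RPL26L1, RPL39L, RPS4Y1, RPS27L and RPS19BP1. No member carried the symbol RPL26, RPL39 or RPS4X. For RPL26L1, RPL39L and RPS4Y1, a copy and the main gene therefore cannot be told apart by symbol. The members lay on 27 chromosomes, with 10 on chromosome 1, 7 on chromosome 4 and 4 on the Z chromosome.

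The ribosome joins a large subunit, which forms the peptide bond, and a small subunit, which reads the mRNA, and each subunit is a shell of proteins around ribosomal RNA. Nearly every one of these proteins is present in a single copy per ribosome, the exception being the stalk of the large subunit, where RPLP0 carries paired copies of RPLP1 and RPLP2. Their mRNAs are short and abundant in growing cells and start with a pyrimidine tract through which their translation is controlled together. Hair cells, the mechanoreceptors of the vestibular organ, are non-dividing secretory cells, the type I cell being enclosed by an afferent calyx and the type II cell contacted by bouton endings.

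One library came from the aspirated content of a single type I hair cell at embryonic day 20 (E20). Another came from a single type II hair cell at E19, and 1 from whole ampullary cristae at E16 pooled from 22 embryos. For the hair cells, cytoplasm was drawn into a patch pipette, and the nucleus was held at its tip during withdrawal. The paper selected 12 hair cells for sequencing and kept these for their RNA quality. The others had human DNA contamination or too few transcript counts. The part of this choice in the detected counts was not tested. The hair cells were collected through the patch pipette after whole-cell recording and carry no label of genotype or treatment, nor does the crista, which also holds supporting, glial, neuronal and blood cells. With 1 library per group there are no replicates, and the comparisons below are descriptions without a test. Age, pooling, library kit and read layout changed together with the group, and their parts in a difference between hair cell and crista cannot be told apart. The hair cells also differed by 1 embryonic day, which cannot be told apart from their type.

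Estimated reads summed to 10779664 for the type I hair cell, 11943061 for the type II hair cell and 67428006 for the whole crista. Detection, meaning at least 1 estimated read, was reached by 2340, 2381 and 18001 genes, and mitochondrial genes took 5.50%, 7.38% and 0.879% of the reads. Of 15 matched hair cell markers 10 were detected in each hair cell (summed 11917 and 9772 CPM, reads per 1000000 of the library, against 1997 in the crista), but MYO7A, POU4F3, GFI1 and SLC17A8 were at 0 in both. Of 12 supporting cell markers 5 and 4 were detected in the type I and type II cell (4411 and 5059 CPM against 27856 in the crista). Of 6 glial markers 2 were detected in either cell (246 and 265 CPM against 3004), of 8 neuronal markers 0 and 1 (0 and 0.335 CPM against 156), and of 5 globin markers none, whereas the crista had 5856 CPM of globin reads. The part of other cell types in the values below was not tested, and in such tissue fewer cells of a type and less RNA per cell cannot be told apart. Levels are given as estimated reads or as TPM (transcripts per 1000000 transcripts), the unit in the files that corrects for the length of a gene's transcripts. Intervals of read counts and ratios are exact 95% intervals and cover counting error only. Reads of amplified cDNA do not each stand for a separate molecule, and a transcript lost during capture is not counted. Intervals of the share of genes detected are exact binomial 95% intervals that treat genes as independent draws. Genes of 1 library are not independent replicates, and no interval covers the spread between libraries.

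Nearly all ribosomal protein genes were seen in each hair cell. For the type I cell 65 of the 71 had a read (91.5%, interval 82.5 to 96.8), beside 7.77% of all genes. For the type II cell 63 had a read (88.7%, interval 79.0 to 95), beside 7.91% of all genes. In the whole crista all 71 had a read, beside 59.8% of all genes. Without the 8 symbols of a copy, relative or binding partner, 62, 60 and 63 members were read in the type I cell, the type II cell and the crista. These genes are abundant in the crista, which bears on that count. Among the 1762 genes at 100 TPM or more in the crista, 41.9% had a read in the type I cell, and 42.2% in the type II cell. Of the 64 ribosomal protein genes at that level, 62 and 61 were read.

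Most members were seen in both cells or missed in both. A read in both hair cells was found for 63 members, a read in neither for 6 and a read in the type I cell alone for 2, and no member was read in the type II cell alone. Over all genes read in at least 1 hair cell, 28.1% were read in exactly 1. With 100 reads as the limit, 59 members passed in both cells and 12 in neither, and none passed in a single cell. Among all genes with 100 reads in at least 1 hair cell, 5.28% passed in a single cell, so a low count of such genes was not particular to the family. The rank order of the 71 levels was close to identical in the hair cells (Spearman's rho of log2 TPM 0.995), and further from that of the crista (0.604 and 0.609). The points of these correlations are genes of the same libraries and not independent replicates, and unread members entered at the level of 3 reads. All 1297 genes that passed 100 reads in the 3 libraries gave 0.992 for the hair cells and 0.403 and 0.382 for each with the crista. The 59 members under that same limit gave 0.992, 0.477 and 0.486. On CPM these 59 members gave 0.301 and 0.308 with the crista, and the 1297 genes 0.186 and 0.174. The plot of levels by gene shows the closeness of the hair cells, with the circle and the square of most genes lying side by side. The diamond often lay apart, but 16 members were within 2-fold of the crista in both cells.

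**Figure D1:**
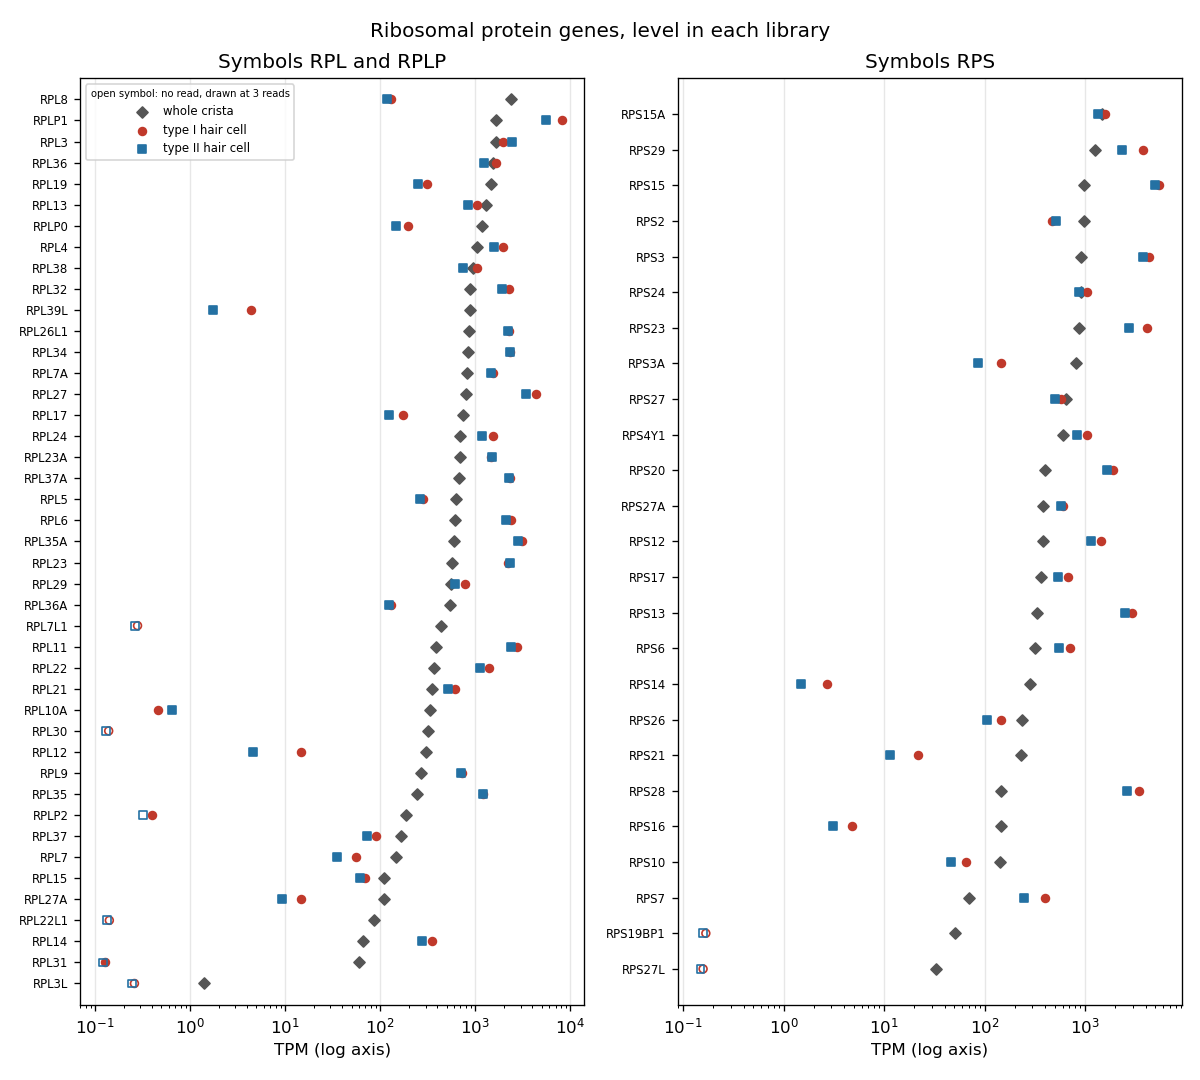
Level of 68 of the 71 ribosomal protein genes in each library, with TPM on a logarithmic horizontal axis and 1 row per gene, ordered by the whole-crista level. Circles are the type I hair cell, squares the type II hair cell and diamonds the whole crista, and open symbols mark a gene without a read, drawn at the level of 3 reads. The hair cell levels run from no read to 8095 TPM, whereas 67 of the 68 genes lie between 32.6 and 2384 TPM in the crista.

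Ribosomal protein genes held 5.22% of the type I library, 4.10% of the type II library and 1.95% of the crista library, counted in reads. Their share of TPM was 9.73%, 8.32% and 4.57%. The share of reads was 1.27 times higher in the type I than in the type II cell, and 2.67 and 2.10 times higher in the 2 cells than in the crista. Genes of the mitochondrial ribosome held 1.23% and 1.32% of reads in these cells, against 0.41% in the crista. Translation factors and related genes held 1.40% and 1.31% against 0.877%, and ribosome assembly factors were also higher in both cells. A read share above that of the crista was therefore not particular to the family. The median member stood at 723, 618 and 566 TPM, so the typical level differed less than the sum. In CPM the medians were 419, 345 and 234. The spread in TPM differed as well. The middle 50 percent of members lay between 79.5 and 2104 TPM in the type I cell, between 67.4 and 2019 TPM in the type II cell and between 258 and 896 TPM in the crista. The log2 TPM ratio to the crista had an SD of 3.06 and 2.81 over members with a read in the type I and type II cell. Over all genes with a read and at least 100 crista reads it was 4.37 and 4.57, so a wide spread was not particular to the family. Among the 100 genes of highest TPM, 21 were ribosomal protein genes in the type I cell, 18 in the type II cell and 11 in the crista, beside 71 of all 30108 genes. The order of the libraries depended on the limit and the scale. Among the 500 genes of highest TPM the members numbered 45, 42 and 48. By reads they numbered 6, 3 and 3 of the top 100, and 33, 29 and 23 of the top 500.

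The gene with the highest level in the type I hair cell was RPLP1 (ENSGALG00010009113, chromosome 2, 144622258 to 144623423 in GRCg7b), an acidic protein of the stalk that recruits the elongation factors. It stood at 8095 TPM in the type I cell, 5491 TPM in the type II cell and 1668 TPM in the crista. RPS15 (ENSGALG00010028054, chromosome 28, 3645519 to 3647176), a protein of the head of the small subunit, stood at 5452, 4917 and 973 TPM. Both marker genes of the family were thus higher in each hair cell than in the crista. Their summed reads made 4070, 2899 and 552 CPM.

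RPS3, a protein at the mRNA entry channel that also has repair functions outside the ribosome, had 4355 TPM in the type I cell, 3782 TPM in the type II cell and 916 TPM in the crista. RPL27 had 4328, 3391 and 801 TPM. Both were among the leading members of each hair cell. RPS23, a protein of the decoding site, had 4093, 2738 and 874 TPM. RPL35A had 3130, 2829 and 599 TPM. The order of the leading genes in the crista was another one.

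RPL8 (ENSGALG00010002492, chromosome 1, 112163898 to 112167580), a protein near the peptidyl transferase centre, led the crista with 2384 TPM but had 130 TPM in the type I cell, and 119 TPM in the type II cell. Behind RPLP1 in the crista came RPL3, which also reaches toward that centre, with 1651 TPM there, 1970 TPM in the type I cell, and 2461 TPM in the type II cell. RPL36 had 1551 TPM in the crista and 1652 and 1225 TPM in the cells. Both of these stayed within 2-fold of the crista in either cell, unlike RPL8. RPL19 had 1467 TPM in the crista and 310 and 253 TPM in the cells. RPL13 had 1288 TPM in the crista and 1035 and 834 TPM in the cells. RPS15A had 1485 TPM in the crista and 1592 and 1330 TPM in the cells.

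Large and small subunit genes were compared without a test. Of the 44 large subunit members 40 and 38 were read in the type I and type II cell, and of the 27 small subunit members 25 and 25. The median large subunit member had 756, 662 and 603 TPM in the type I cell, the type II cell and the crista, and the median small subunit member 707, 575 and 381 TPM. The large subunit median was therefore higher in each library on this scale, by 0.10, 0.20 and 0.66 on the log2 scale. On CPM, which is not corrected for length, the order turned in both hair cells, to -0.52 and -0.58, and stayed at 0.29 in the crista. The read share of small subunit genes was 3.50 and 2.62 times that of the crista in the type I and type II cell, and that of large subunit genes 2.23 and 1.82 times. The median fold over the crista in TPM was 1.74 and 1.46 for small subunit members and 1.10 and 1.04 for large subunit members.

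The partners of the stalk stood at widely different levels. RPLP0, its base, had 196 TPM in the type I cell, 146 TPM in the type II cell and 1166 TPM in the crista. RPLP2 (ENSGALG00010023115, chromosome 5, 15378083 to 15382818), which pairs with RPLP1 in equal number, had 4 reads in the type I cell (interval 1.09 to 10.2), 0 in the type II cell and 5837 in the crista, or 0.40, 0 and 188 TPM. RPLP1 therefore stood 41.3 times above RPLP0 in the type I cell and 37.6 times in the type II cell, but 1.43 times in the crista. RPL12, which binds at the base of the stalk, had 54, 21 and 5065 reads, also a low level in both cells. Over RPLP2, RPLP1 was 8.88 times higher in the crista and at least 17021-fold higher in the type II cell, against a floor of 3 reads.

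RPL5 and RPL11 travel together with the 5S ribosomal RNA into the large subunit and, when ribosome assembly fails, bind the p53 regulator MDM2. RPL11 (ENSGALG00010015127, chromosome 23, 5929061 to 5932161) had 2766 TPM in the type I cell, 2382 TPM in the type II cell and 383 TPM in the crista. RPL5 (ENSGALG00010021788, chromosome 8, 13782993 to 13791058) had 282, 262 and 635 TPM. The order of the partners was thus RPL11 above RPL5 in both cells and RPL5 above RPL11 in the crista. RPS6, the small subunit protein phosphorylated by S6 kinase, had 707, 556 and 321 TPM. RPS27A, made as a fusion with ubiquitin, had 603, 575 and 381 TPM. These levels lay in the middle of the family.

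**Figure D2:**
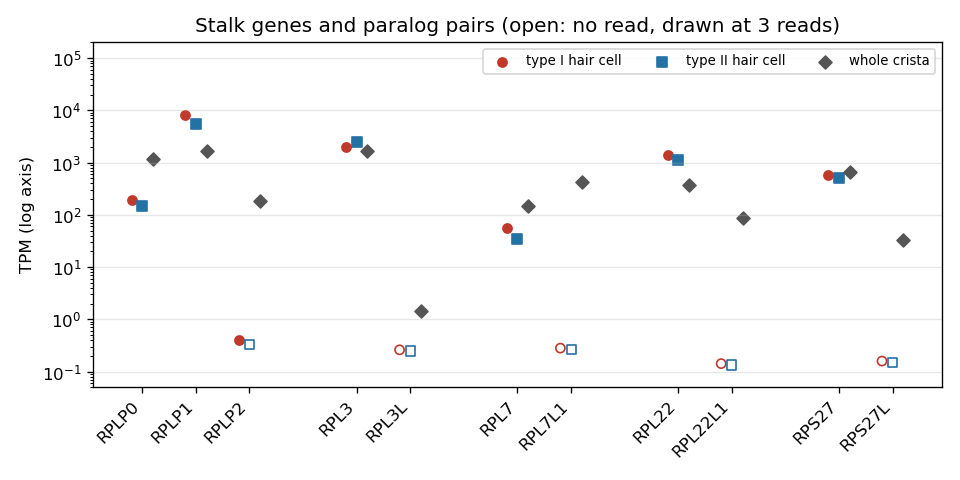
Level in TPM on a logarithmic vertical axis of the 3 stalk genes and of 4 genes with their paralog copy, with circles for the type I hair cell, squares for the type II hair cell and diamonds for the whole crista. Open symbols mark genes without a read, drawn at the level of 3 reads. RPLP2 and the 4 copies RPL3L, RPL7L1, RPL22L1 and RPS27L are at or near no read in both hair cells, whereas all but RPL3L stand at 32.6 TPM or more in the crista.

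Of the symbols that name a paralog copy, RPL3L, RPL7L1, RPL22L1 and RPS27L had reads in the crista and none in the hair cells. Among all 13087 genes with at least 100 crista reads, 10995 had no read in the type I cell and 10967 none in the type II cell. A lack of reads was therefore not particular to copies. RPL26L1 (2260 and 2229 TPM in the type I and type II cell), RPS4Y1 (1043 and 831 TPM) and RPL39L (4.33 and 1.75 TPM) were read in both. RPL26, RPS4X and RPL39 were not among the members, so these latter levels cannot be set against a main gene. In mammals RPL3L replaces RPL3 in striated muscle, and it had 80 reads (1.41 TPM) in the crista and none in either hair cell. RPL22L1 had 8277 reads (86.8 TPM) in the crista and none in the cells, where RPL22 had 1396 and 1110 TPM. RPS27L had 2286 reads (32.6 TPM) in the crista and none in the cells, where RPS27 had 576 and 498 TPM. RPL7L1, a relative of RPL7, exceeded RPL7 in the crista in TPM, with 432 against 147, but not in reads, with 20132 against 20714, since the deposited length of RPL7 is 3977 bases and that of RPL7L1 1441. In the cells RPL7L1 had no read, and RPL7 had 55.2 and 34.9 TPM. RPL7 was therefore at least 197-fold above RPL7L1 in the type I cell and at least 131-fold in the type II cell, against the floor of 3 reads. How the quantification shared reads between near-identical copies was not examined, so each of these levels is uncertain to that extent.

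Other members without a read in either hair cell were RPL30 and RPS19BP1, the latter a binding partner of RPS19 and no ribosomal protein. RPL30 (ENSGALG00010011650, chromosome 2, 127056075 to 127059418), which lies at the contact of the subunits, had 18674 reads and 320 TPM in the crista. In TPM it was at least 2295-fold lower in the type I and at least 2437-fold lower in the type II cell. On CPM these bounds were 995-fold and 1103-fold. RPS19BP1 had 4149 reads and 51.2 TPM in the crista. The floor of 3 reads used for these bounds equals 0.278 CPM for the type I library and 0.251 CPM for the type II library. Besides RPLP2, the member read in the type I cell alone was RPL31, with 3 reads there (interval 0.619 to 8.77) and 6077 in the crista, a count within the limit that 0 reads left in the other cell.

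The 4 members read in both cells with fewer than 100 reads were RPL10A, RPL12, RPL39L and RPS14. RPL10A, which forms the other stalk of the large subunit, had 5 and 7 reads in the type I and type II cell and 16641 in the crista. RPL39L had 18 and 7 reads and 15763 in the crista. RPS14, a protein of the platform of the small subunit, had 43 and 24 reads and 20819 in the crista. The 12 members under 100 reads in both cells had a median crista level of 234 TPM, against 653 TPM for the other 59, and a median deposited transcript length of 1810 against 965 bases. The 12 include RPL3L, RPL7L1, RPL22L1, RPL39L, RPS27L and RPS19BP1, which name a copy, relative or binding partner, so the medians partly contrast such symbols with main genes. Low level in the crista and long transcripts moved with these low counts, and their part in them was not tested.

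Between the hair cells, most ribosomal protein genes were somewhat higher in the type I cell. For the 59 members that passed 100 reads in both cells, the TPM of the type I cell was divided by that of the type II cell. None was more than 2-fold higher or lower, beside 0.528% and 0.829% of 1327 genes with as many reads, shares at which fewer than 1 of 59 members would be past either limit. The ratio was above 1 for 52 of 59 members (88.1%), beside 54.3% of all genes, and its median was 1.20, beside 1.03. The median of small subunit members was 1.25 and that of large subunit members 1.19. Of the 50 members that passed 1000 reads in both cells 43 (86.0%) were above 1, beside 42.7% of 879 genes. The 4 members on the Z chromosome had a median of 1.33 (1.24 to 1.49), within the range of 0.80 to 1.91 of the 59 members. The median of all Z genes was not calculated.

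The size of that offset depended on the scaling. The median log2 ratio of members was 0.27 on TPM, 0.40 on CPM, 0.37 on CPM without mitochondrial genes and 0.19 after scaling by the median ratio of genes. The median of all genes was 0.04, 0.14, 0.11 and -0.07 on these scales, so members stood 0.23 above it on TPM and 0.26 above it on the others. The share of members above 1 was 98.3% on CPM and 84.7% after scaling by the median ratio, beside 64.1% and 42.4% of all genes. The log2 ratios of members had an SD of 0.24 over genes, 4.55 times what counting error gives, while that of all genes was 5.05 times. A member whose counting interval leaves out 1 is thus not unusual among genes.

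**Figure D3:**
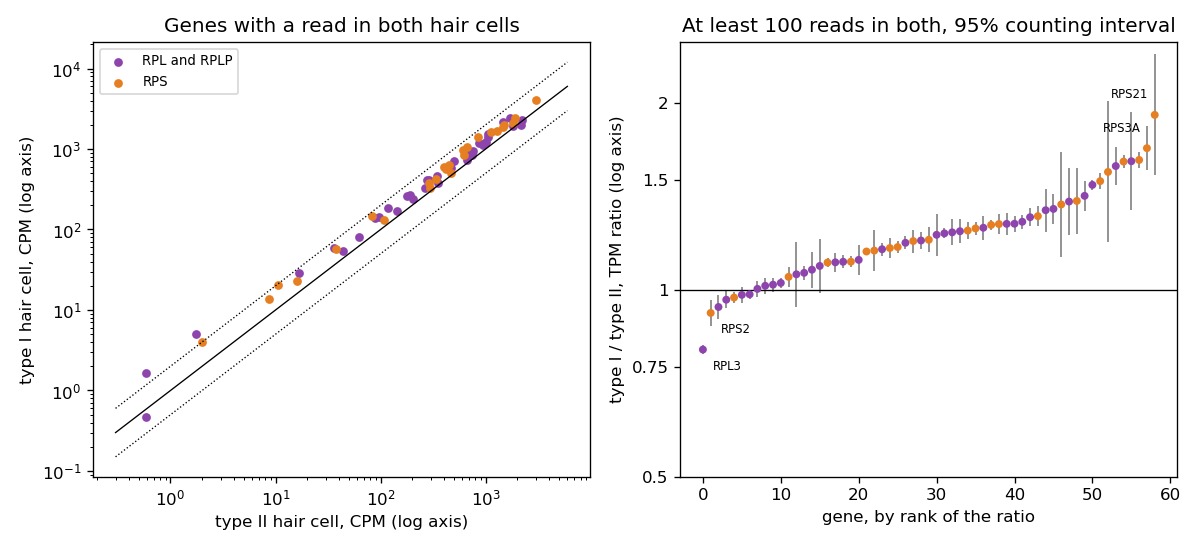
Ribosomal protein genes in the 2 hair cells. The left panel plots CPM in the type I against the type II cell on logarithmic axes, with the line of equality and dotted lines at 2-fold, and the right panel ranks the type I level divided by the type II level in TPM for the 59 genes that passed 100 reads in both, with exact 95% counting intervals. The ratios run from 0.80 for RPL3 to 1.91 for RPS21, and 52 of 59 lie above 1.

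The lowest ratio belonged to RPL3 (ENSGALG00010012610, chromosome 1, 50730828 to 50736632), with 21141 and 26094 reads in the type I and type II cell giving 0.80 as ratio of TPM (counting interval 0.79 to 0.82). It was below 1 on each of the 4 scales. RPS2 and RPL23 stood at 0.92 and 0.96, and both lay above 1 on CPM, at 1.11 and 1.11. RPL3 thus ran against the family however the libraries were scaled.

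The highest ratios came from genes of very different levels. RPS21 had 218 and 127 reads in the type I and type II cell, giving 1.91 as ratio of TPM (counting interval 1.53 to 2.40). RPS3A, a protein that contacts initiation factors, had 1581 and 983 reads, and a ratio of 1.69 (1.56 to 1.83). RPS29 had 10572 and 7314 reads and a ratio of 1.62 (1.57 to 1.67). The 2 members that followed were RPL27A (1.61) and RPS7 (1.61). Below 100 reads, RPL12 had 54 and 21 reads and a ratio of 3.24 (1.92 to 5.65). It was the only member past 2-fold among the 61 with at least 10 reads in both. Among all 1687 genes with as many reads, 101 were more than 2-fold higher and 17 lower, so such a ratio was not particular to RPL12.

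Against the whole crista the family split into genes above and genes below. For the type I cell 28 of the 70 members with at least 100 crista reads were more than 2-fold higher than in the crista and 24 more than 2-fold lower, beside 4.79% and 92.6% of 13087 genes. For the type II cell 25 were higher and 25 lower, beside 4.78% and 92.8%. Most of those genes had no read in the cell. Among all genes with a read, 30% were higher and 53.9% lower in the type I cell, and 29.5% and 55.5% in the type II cell. Of the 65 members with a read in the type I cell 28 were higher and 19 lower. Of the 63 with a read in the type II cell 25 were higher and 18 lower. Both cells placed 25 members above, 23 below and 16 within 2-fold of the crista, beside 4.57%, 92.5% and 2.06% of all genes. The median member was 1.30 and 1.24 times the crista level, while on CPM it was 1.98 and 1.63 times and 35 and 30 members were more than 2-fold higher, beside 5.56% and 5.33% of all genes.

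Highest against the crista was RPS28 (ENSGALG00010028463, chromosome 28, 1300552 to 1301105), a small protein near the mRNA exit. It had 6809 reads in the type I cell, 5336 in the type II cell and 1726 in the crista, or 3416, 2602 and 147 TPM, and was 23.3 and 17.7 times higher in the cells. RPS13 had 2902, 2479 and 334 TPM, and was 8.69 and 7.42 times higher. RPL11, described above, was 7.22 and 6.22 times higher, RPS15 5.60 and 5.05 times and RPL35A 5.22 and 4.72 times. All 5 were above the crista on CPM as well.

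At the other end stood the genes with few or no reads. In TPM RPL30 came first, followed by RPL7L1, at least 1543-fold and 1628-fold lower in the type I and type II cell, and RPL22L1, at least 613-fold and 651-fold lower. On CPM, which leaves out the assigned length, RPL7L1 came first, at least 1073-fold and 1189-fold lower, ahead of RPL30. The folds that follow are in TPM. RPL10A was 738 and 521 times lower, and RPLP2 472 times lower in the type I and at least 582-fold lower in the type II cell. RPL8, with 864 and 739 reads in the cells and 62139 in the crista, was 18.3 times lower in the type I cell and close to that in the type II cell. RPS16 had 146 and 104 reads in the cells and 16243 in the crista, and was 30.3 and 46.9 times lower. Both cells gave the same side for each of these genes.

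**Figure D4:**
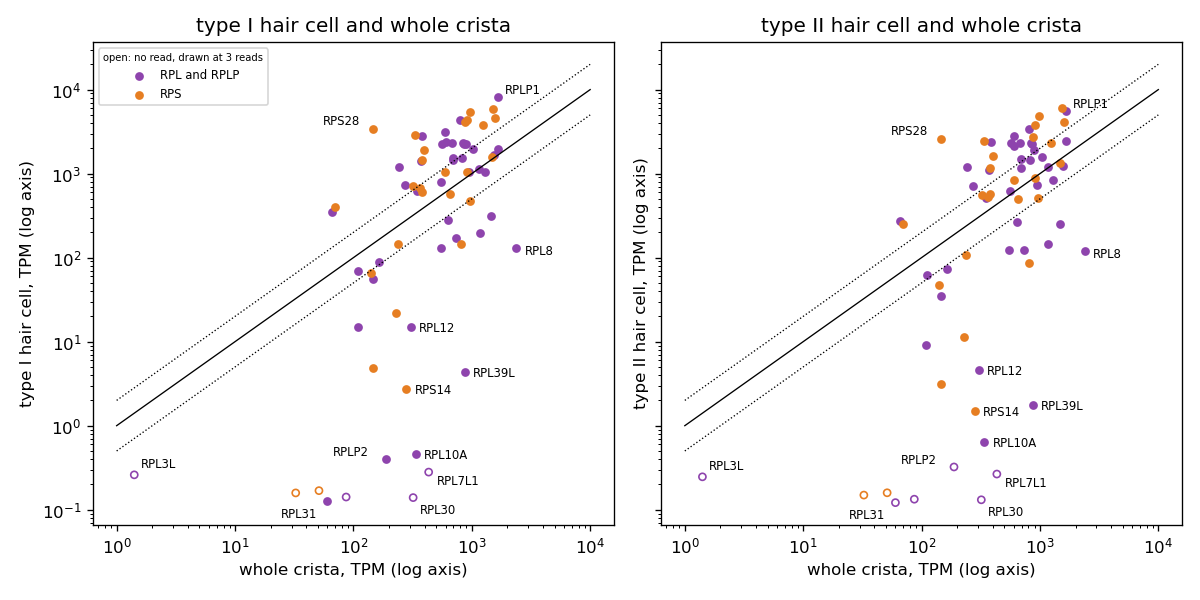
Level of each ribosomal protein gene in a hair cell (vertical axis) against the whole crista (horizontal axis), in TPM on logarithmic axes, for the type I cell on the left and the type II cell on the right. The solid line marks equality and dotted lines mark 2-fold, purple points are large and orange points small subunit genes, and open points had no read and are drawn at 3 reads. RPS28 lies farthest above the line in both panels, and RPL30 and RPL7L1 lie farthest below it.

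The length assigned to a gene enters its TPM. RPS7, RPL14 and RPL7 have deposited lengths of 4324, 3982 and 3977 bases in the type I cell, and RPLP1 and RPS28 of 632 and 476 bases. RPL14 with 12682 reads was thus at 352 TPM in the type I cell, whereas RPS28 with 6809 reads was at 3416 TPM. Across the 71 members the ratio of the type I cell to the crista in CPM had a Spearman's rho of -0.385 with the deposited length, and that of the type II cell -0.376.

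Of the ribosomal proteins outside the symbol rule, RACK1, a scaffold of the small subunit, had 40 reads in the type I cell, 15 in the type II cell and 16317 in the crista, or 2.18, 0.84 and 359 TPM. It thus resembled the members with few reads in the hair cells. FAU was not matched to a symbol.

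Genes of other steps of protein synthesis were seen less completely in the hair cells than the cytosolic ribosomal proteins. Each list below still exceeded the share of all genes read, which was 7.77% for type I and 7.91% for type II. Of all genes at 100 TPM or more in the crista, 41.9% and 42.2% were read. Only translation factors and related genes exceeded that share, and their intervals, which treat genes as independent draws, include it. Of 73 genes of the mitochondrial ribosome 18 were read in the type I (24.7%, interval 15.3 to 36.1) and 19 in the type II cell (26.0%, 16.5 to 37.6), and all 73 in the crista. Of 70 ribosome assembly factors 12 and 11 were read in the cells (17.1%, 9.18 to 28.0, and 15.7%, 8.11 to 26.4), and all 70 in the crista. Of 34 translation factors and related genes 19 and 18 were read (55.9%, 37.9 to 72.8, and 52.9%, 35.1 to 70.2), and all 34 in the crista. Their crista levels were lower than those of the cytosolic ribosomal proteins, with medians of 94.8, 35.7 and 196 TPM against 566 TPM. Among them EEF1A1, which delivers aminoacyl-tRNA to the ribosome, had 1098, 1106 and 756 TPM in the type I cell, the type II cell and the crista. EEF2, which moves the ribosome along the mRNA and binds the stalk, had 11.6, 16.2 and 570 TPM. NPM1, a nucleolar chaperone, had 709, 678 and 564 TPM, while NCL, another abundant nucleolar protein, had 11 and 4 reads in the cells and 15845 in the crista. These named genes thus fell on both sides of the crista level, but they were picked after their values were seen. EEF1A1 and NPM1, the ones above it among these, stayed within 2-fold of the crista. Other genes of the lists, likewise picked after their values were seen, stood far above it. POLR1C, an assembly factor, had 3143, 3334 and 50.6 TPM, and MRPL19 of the mitochondrial ribosome had 1719, 2213 and 49.6 TPM. Most genes of those lists nevertheless had no read in either cell. The median gene among translation factors and related genes had 1.40, 1.06 and 196 TPM in the type I cell, the type II cell and the crista. The median gene of the mitochondrial ribosome and the median assembly factor had 0 TPM in both cells.

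**Figure D5:**
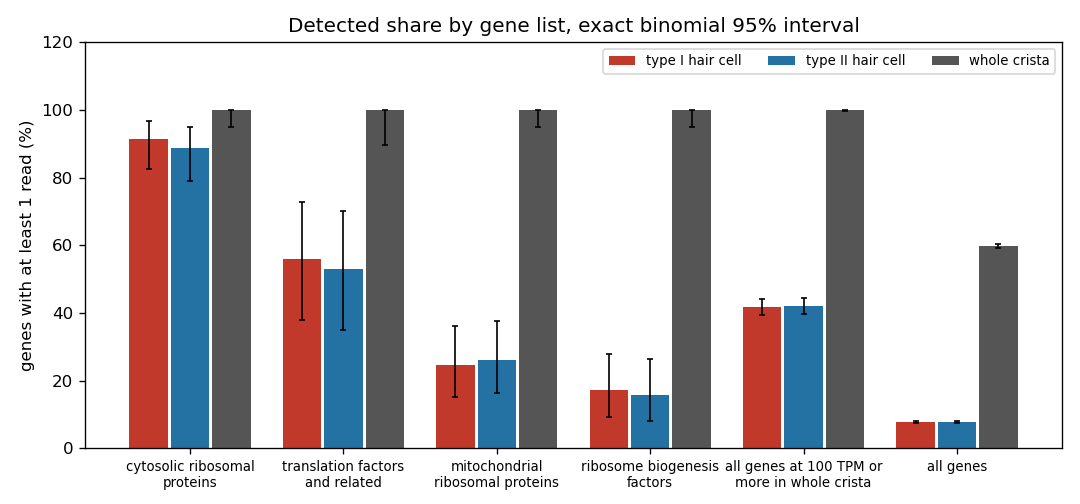
Share of genes with at least 1 estimated read, in percent on the vertical axis, for 4 lists of protein synthesis genes, for all genes at 100 TPM or more in the whole crista and for all genes. Bars are the type I hair cell, the type II hair cell and the whole crista. Error bars are exact binomial 95% intervals, which treat genes as independent draws and do not cover the spread between libraries. The cytosolic ribosomal proteins reach 91.5% and 88.7% in the hair cells, against 17.1% and 15.7% of ribosome biogenesis factors.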

How the data were processed

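For each library the authors deposited, per Ensembl gene, estimated counts of reads, not all whole numbers, and TPM, scaled by the effective length and summing to 1000000. The deposited length and effective length columns and a table of gene names were also used. Hair cell cDNA was made with SMART-Seq v4 and 18 cycles of amplification and read as single reads of 100 bp; the crista was made with a low input kit and paired reads. Submitters' notes name bcl2fastq 2.20.0.422, DRAGEN and the builds GRCg7b and galGal4, and the role of the last is not given in the sources used here.

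The values were used as deposited. Positions came from RefSeq on GRCg7b, where all 71 symbols matched a single gene. Detection was 1 estimated read, the limit for no read 3 reads, and the fold limit 2. Type I to type II ratios required 100 reads in both cells, and hair cell to crista ratios 100 crista reads. Estimated counts were rounded for exact Poisson intervals, and shares have exact binomial intervals. No test was possible with 1 library per group. The members and lists were chosen with earlier results of these data known. Genes named were the stalk genes, the markers RPLP1 and RPS15, the 10 highest members of each library, members with a read in 1 or neither hair cell, the 5 highest and lowest ratios of each comparison, paralog pairs and ribosomal proteins outside the rule; some genes that this rule names are not reported here, although they enter the counts and medians. Members with fewer than 100 reads, RPL5, RPS6, RPS27A, RPS16, the members with long transcripts and the genes named from other lists were added after their values were seen.

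Alternatives changed the detection threshold, depth (thinning, 100 draws), scale (CPM, CPM without mitochondrial genes, median ratio, full length), read minimum and membership. Members without a read were also left out of the ratios to the crista, but no floor other than 3 reads was tried. Calculations were run in Python 3.11.15 with scipy 1.17.1, pandas 2.3.3 and numpy 2.4.6, figures were drawn with matplotlib 3.10.9, and the scripts were first tested on simulated data.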

Additional observations from a re-analysis of the deposited data

How the results depend on the processing

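Every value rests on 1 library per group, so the spread between libraries of a group was not measured. No paired analysis was possible because each group has 1 library, and for the same reason no library could be left out. The read share of members, 5.22%, 4.10% and 1.95% in the type I cell, the type II cell and the crista, was 9.73%, 8.32% and 4.57% of TPM and 5.52%, 4.42% and 1.97% of nuclear reads. The median log2 ratio of type I to type II, 0.27, was 0.40 on CPM, 0.37 on CPM without mitochondrial genes and 0.19 with the median ratio of genes. It was 0.29 with at least 10 reads in both and 0.25 with at least 1000. At 10 reads 1 of 61 members was more than 2-fold higher in the type I cell, beside 101 of 1687 genes. The median log2 ratio to the crista, 0.38 and 0.31 in the type I and type II cell, was 0.99 and 0.71 on CPM, 0.54 and 0.35 on reads per full length, 1.06 and 0.80 on CPM without mitochondrial genes, 0.54 and 0.37 with the median ratio, and 0.80 and 0.58 without members that had no read. The log2 ratio of the large to the small subunit median was 0.10, 0.20 and 0.66 in the 3 libraries, and reversed in the cells to -0.52 and -0.58 on CPM with 0.29 in the crista. It was 0.23, 0.026 and 0.64 without the 8 symbols of a copy, relative or binding partner. Those left out include RPL26L1, RPL39L and RPS4Y1, which had no main gene beside them among the members. The type I to type II ratio crossed 1 for RPS2 (1.11 on CPM, 1.09 without mitochondrial genes) and RPL23 (1.11 and 1.09). The counts of detected members and of detected genes in the other lists, and the other counts past 2-fold, stayed within 1.5 times of their value under each alternative tried.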
